A study of Mesocricetus auratus with 38 samples.

Results

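The growth hormone and IGF axis was followed in the liver through 9 genes: the receptor Ghr, the kinase Jak2, the transcription factor Stat5b, the feedback inhibitor Socs2, the ligand Igf1, the acid-labile subunit Igfals, and the binding proteins Igfbp1, Igfbp2 and Igfbp4. The genes were taken by symbol from the deposited tables, which hold 14631 symbols. Of the 9, 8 had a row, and Stat5b was not analysed here. Of these 8, 7 passed the filter on low counts, as did 9099 genes in all, and Igfbp2 did not.

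Liver RNA of male Golden Syrian hamsters, 22 weeks old at sacrifice and fasted for 6 h, was sequenced in 38 libraries. For 12 weeks, animals of the control group (Chow diet, 9 libraries) were fed normal chow, in which fat made up 11% of calories. Animals of the HFD group (10 libraries) were fed a high-fat diet, in which fat made up 23% of calories and cholesterol was added at 1 g/kg, and which induces fatty liver in this species. The Dose I group (HFD + MI_D1, 9 libraries) and the Dose II group (HFD + MI_D2, 10 libraries) ate the same HFD for 12 weeks and were given combined metabolic activators (CMA) during the final 4 weeks. The activators are L-carnitine, N-acetylcysteine, nicotinamide riboside and betaine, at 200 mg/kg for each of the first 3 and 400 mg/kg for betaine in Dose I, and at 400 mg/kg and 800 mg/kg in Dose II. No genetic modification was used. The HFD group received a placebo, and the treated groups received all 4 activators at once, so the activators cannot be told apart.

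Growth hormone is released by the pituitary in pulses and binds the growth hormone receptor on hepatocytes, which activates the receptor-bound kinase JAK2 and, through it, STAT5B. STAT5B switches on the genes of insulin-like growth factor 1 (IGF-1), of the acid-labile subunit and of SOCS2, an inhibitor that dampens the same receptor. The liver is the main source of IGF-1 in blood, where the peptide is carried by binding proteins of the IGFBP family, the acid-labile subunit completing the large circulating complex. Transcription of the IGFBP-1 gene is held down by insulin and rises in fasting.

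Total estimated counts were 4.08e+06 to 1.04e+07 per library. The study filtered out 1 control library after a principal component analysis, and control C105 is taken here as that library (libraries are named C, H, DI and DII for the 4 groups with the number in their labels). On the first principal component, C105 had a score of 19.22, and the other 8 controls had scores between -23.08 and -12.71. Values are given over the other 37 libraries unless all 38 are named. In each library, the deviation of each gene from its mean over the 38 libraries was rank-correlated with gene length. A value is thus relative to the other libraries. This correlation was 0.121 to 0.344 in the 8 controls, -0.203 to 0.176 in the HFD group, -0.264 to 0.134 in the Dose I group, -0.284 to 0.114 in the Dose II group and -0.356 in C105. Controls tended to higher values in this measure than the animals on the HFD. Their range overlapped those of the HFD and Dose I groups. Whether this trend with gene length is technical was not tested. Each library was taken as 1 animal. The labels give no batch.

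Hepatocyte markers (9 genes found, among them Alb) summed to 219400 to 256800 CPM (counts scaled to the library's total) in the control group and to 152000 to 213100 CPM in the HFD group. The sums were 154900 to 202800 CPM at Dose I and 133000 to 204300 CPM at Dose II, so that the tissue label held. Of these 9 genes, 2 were higher and 2 lower in the HFD group vs. control, beside 18.1% of all genes in each direction. Kupffer cell and macrophage markers (10 genes) summed to 192.8 to 273.2 CPM in the control group, 278.2 to 469.7 CPM in the HFD group, 210.9 to 402.9 CPM in the Dose I group and 194.5 to 368.5 CPM in the Dose II group. Of these 10 macrophage genes, 7 were higher in the HFD group vs. control, beside 18.1% of all genes, and 6 were lower at Dose II vs. HFD, beside 2.25%. Their part in the results below was not tested. In bulk tissue, fewer cells of a type cannot be told from less RNA per cell. Pituitary genes, growth hormone itself among them, summed to at most 0.5729 CPM in any library.

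The binding protein gene Igfbp4 was the most abundant of the set in the liver and Igfbp2 was almost undetected. Levels were compared between genes on the TPM scale, which divides counts by transcript length. The mean over 37 libraries was 891.4 TPM for Igfbp4, with libraries between 687.9 and 1116 TPM, and it exceeded the mean of 99.4% of all genes. Igf1 followed with 508.2 TPM (382.3 to 617.2), and its highest library lay below the lowest of Igfbp4. The Igf1 transcript is among the shortest in the tables, at percentile 2.47 of relative length, and its TPM level scales with that length. Ghr had 122.2 TPM (53.38 to 189.1), Igfbp1 88.77 TPM (5.791 to 257.3) and Igfals 48.16 TPM (19.2 to 78.83), and the ranges of these 3 genes overlapped. Socs2 had 14.67 TPM (2.776 to 56.75), and Jak2 was the lowest of the tested genes with 3.446 TPM (2.492 to 4.885), close to the middle of all genes (56.3% of genes lay below it).

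Igfbp2, which encodes a binding protein that mouse liver secretes, had 2 counts over all 38 libraries. One control and one HFD library held 1 count each, and all 9 Dose I and all 10 Dose II libraries were at 0. A count of 0 allows up to 0.0584 CPM over the Dose I group and 0.0491 CPM over the Dose II group (3 counts of the group's total, counting error only). No difference between groups was detectable at this depth. Reads were counted against the annotated MesAur1.0 transcripts, and whether the Igfbp2 entry there is complete was not tested.

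**Figure D1:**
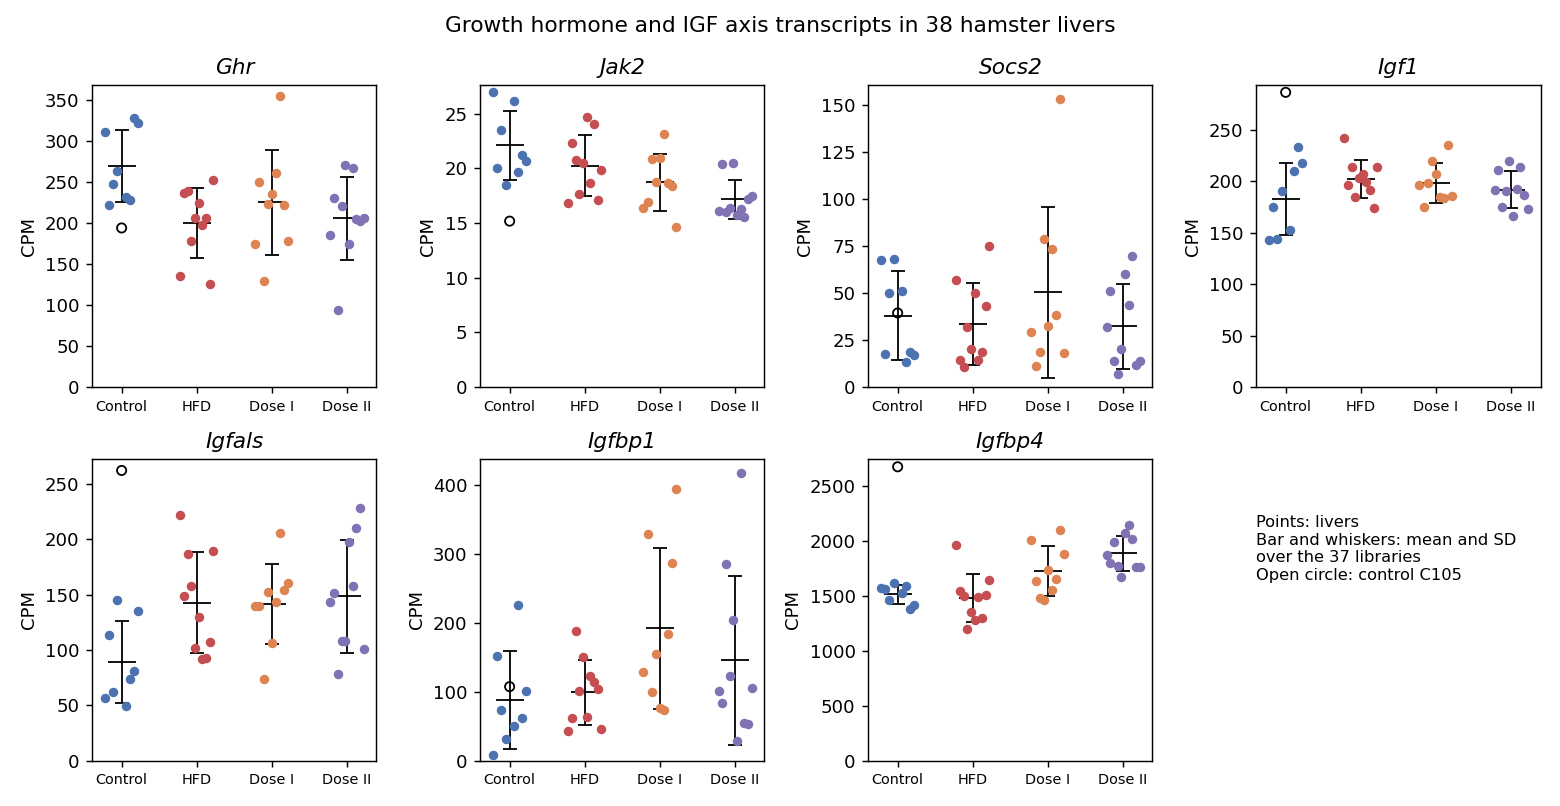
CPM of the 7 tested growth hormone and IGF axis genes in every liver, by group, with linear axes that start at 0. Points are libraries, the bar and whiskers are the mean and SD over the 37 libraries, and the open circle is control C105, which stands at 262 CPM for Igfals and 2673 CPM for Igfbp4, above every other control.

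To see how the diet changed the axis, the HFD group was compared with the control group. Ghr fell and Igfals rose, and the other 5 tested genes did not pass the test. These 2 of 7 genes stand beside 3296 of 9099 tested genes (36.2%) called in the same comparison, of which 1647 were higher and 1649 lower, so the share of the axis genes lay close to that of all genes. With C105 included, 0 of 7 were called, beside 15.6% of 9045 genes. A gene was called at an adjusted p under 0.1, the study's own threshold, by the quasi-likelihood test of edgeR, adjusted by Benjamini-Hochberg over all tested genes.

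Ghr, through which the liver senses growth hormone, had a lowest, median and highest level of 222, 256 and 329 CPM in the 8 controls. In the HFD group the same values were 125.5, 206.7 and 253 CPM. The groups overlapped, and 6 of 10 HFD libraries lay below the lowest of the 8 controls. The log2 fold change was -0.43 ± 0.16 (SE, adjusted p = 0.0392). With C105, a control with 194 CPM of Ghr, it was -0.38 and no longer passed (adjusted p = 0.111).

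Igfals, the hepatocyte gene for the acid-labile subunit of the circulating complex, moved the other way. It had 49.5, 77.4 and 145 CPM (lowest, median and highest) in the 8 controls and 92.3, 139 and 222 CPM in the HFD group. The groups overlapped, since 3 of 8 controls had more than the lowest HFD libraries, while 5 of 8 had less than every HFD library. The log2 fold change was 0.67 ± 0.22 (SE, adjusted p = 0.0197), or 1.59-fold. C105 had 262 CPM, more than any HFD library, and with it the log2 fold change was 0.40 (adjusted p = 0.312).

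Igf1 itself had 143, 183 and 233 CPM in the 8 controls and 174, 201 and 242 CPM in the HFD group, and did not pass the test (log2 fold change 0.15 ± 0.08, adjusted p = 0.203). The 95% interval of the log2 fold change was -0.03 to 0.32, so a change of the size measured for Igfals lay outside it. The sign of this small value depends on the processing, since it was -0.04 once each library's trend with gene length was removed. Jak2 had a log2 fold change of -0.12 ± 0.09 (adjusted p = 0.345) and Igfbp4 one of -0.03 ± 0.08 (adjusted p = 0.777).

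Igfbp1 and Socs2 varied widely between animals, and the intervals of their differences were wide. Igfbp1 ranged from 8.57 to 226 CPM in the 8 controls and from 43.5 to 188 CPM in the HFD group, with medians of 67.9 and 102.1 CPM. Its log2 fold change was 0.18 with a 95% interval of -0.72 to 1.09 (adjusted p = 0.797). Socs2 ranged from 13.2 to 67.9 CPM in the 8 controls and from 10.7 to 75.0 CPM in the HFD group, with a log2 fold change of -0.17 and an interval of -1.10 to 0.75 (adjusted p = 0.812). The groups overlapped over most of their ranges, and in both genes the animals of a group differed several times over.

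**Figure D2:**
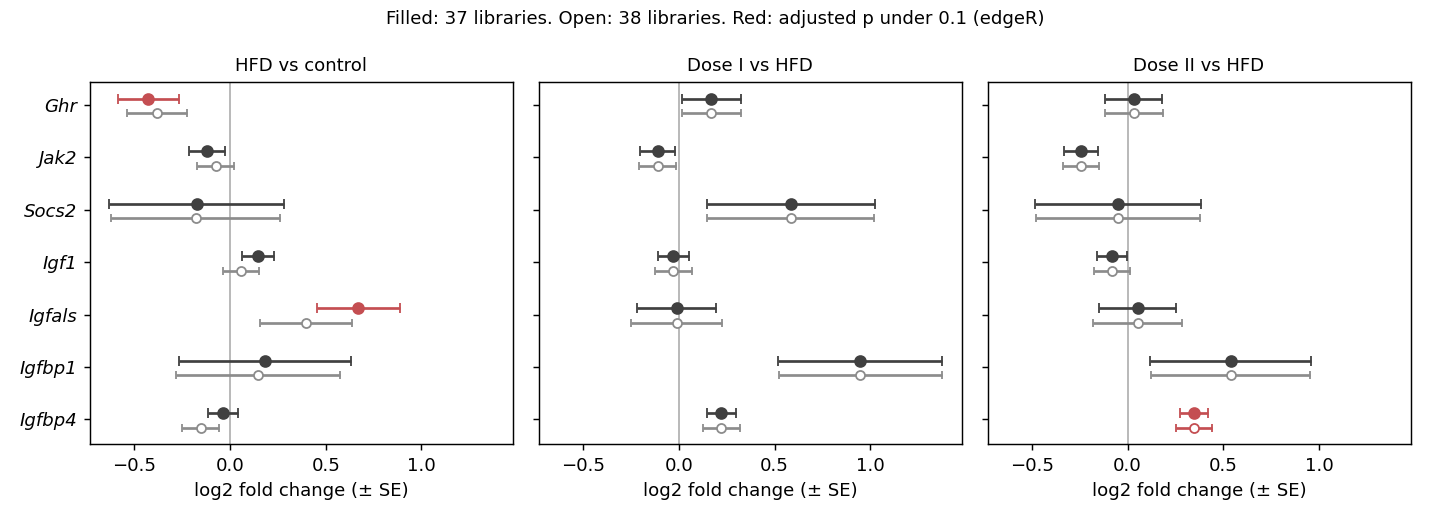
Log2 fold change ± SE of the 7 tested genes in the HFD group vs. control and in each dose vs. the HFD group, over 37 libraries (filled) and 38 libraries (open), with calls at an adjusted p under 0.1 in red. Igfbp4 in Dose II (0.35) is called in both fits, and Ghr (-0.43) and Igfals (0.67) in the HFD group are called over 37 libraries only.

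Next, the treated groups were compared with the HFD group. At Dose II, Igfbp4 rose, and it was the only 1 of 7 genes called, beside 512 of 9099 genes (5.63%). With C105 in the fit it was again 1 of 7, beside 2.7% of genes. Of the 512 genes, 307 were higher and 205 lower. On TPM values (limma-trend on log2(TPM + 1)) the split was 151 higher and 439 lower, and the median log2 fold change of all genes was -0.06 in place of 0, so directions of small changes at Dose II depend on the scale.

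Igfbp4, which encodes a binding protein that keeps IGF from its receptor, had a lowest, median and highest level of 1198, 1492 and 1966 CPM in the HFD group. In the Dose II group these were 1675, 1835 and 2140 CPM. Of the 10 HFD libraries, 9 lay below the lowest Dose II library, and the exception was H110 with 1966 CPM. The log2 fold change was 0.35 ± 0.07 (SE, adjusted p = 0.0067), a 1.27-fold rise that was rank 43 of all genes by p-value. Its adjusted p was 0.0548 with all 38 libraries and stayed under 0.1 when any library of the 2 groups was left out (0.0010 to 0.0208). On the TPM scale the log2 fold change was 0.28 (limma, adjusted p = 0.0138), and with the trend with gene length removed it was 0.33.

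The Dose I libraries of Igfbp4 lay between, with 1465, 1657 and 2099 CPM. The log2 fold change of Dose I vs. HFD was 0.22 ± 0.08 with an unadjusted p of 0.0054 and an adjusted p of 0.303 in edgeR, so it did not pass. Dose II vs. Dose I gave 0.12, with a 95% interval of -0.03 to 0.28 (adjusted p = 0.9999). The medians of the 3 groups on the HFD thus stand in the order of the dose, but neighbours in that order did not differ beyond the test.

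Jak2 took the opposite order. It had 16.8, 20.2 and 24.7 CPM (lowest, median and highest) in the HFD group, 14.6, 18.6 and 23.1 CPM in the Dose I group and 15.6, 16.3 and 20.4 CPM in the Dose II group. In the Dose II group, 8 of 10 libraries lay below 18.5 CPM, the lowest of the 8 controls. The log2 fold change of Dose II vs. HFD was -0.24 ± 0.09 (adjusted p = 0.121) and did not pass, while it passed with an adjusted p of 0.0683 at the lowest when H110, H113, H118, DII130 or DII133 was left out. In the other 15 of 20 fits with 1 library left out it did not pass. On log2(TPM + 1) it passed (adjusted p = 0.083, limma). It did not pass in DESeq2 (adjusted p = 0.106), or in edgeR with all 38 libraries (adjusted p = 0.211) or with the length trend removed (-0.19, adjusted p = 0.184). Dose II vs. Dose I gave -0.13, with a 95% interval of -0.32 to 0.05.

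No axis gene was called at Dose I (0 of 7, beside 0.187% of all genes, or 17 genes), and none with C105 included (0 of 7, beside 0.0553%). At an unadjusted p under 0.05 edgeR gave 2 of 7, Igfbp4 and Igfbp1, beside 844 of 9099 genes. DESeq2 called 0 of the 7, beside 79 genes in all. Igfbp1 had 43.5, 102.1 and 188 CPM in the HFD group and 73.1, 154 and 394 CPM in the Dose I group, where 3 animals (DI121, DI127 and DI128) lay above every HFD library. Its log2 fold change was 0.95 ± 0.43 (unadjusted p = 0.033, adjusted p = 0.489 in edgeR). In the Dose II group the values were 28.1, 103.2 and 417 CPM and the log2 fold change was 0.54 ± 0.42 (adjusted p = 0.524). The Dose II median was thus close to that of the HFD group, and 3 animals (DII131, DII133 and DII135) lay above the highest HFD library.

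For Ghr, the log2 fold change vs. HFD was 0.17 ± 0.15 at Dose I (adjusted p = 0.771) and 0.03 ± 0.15 at Dose II (adjusted p = 0.939). The 95% interval at Dose II was -0.27 to 0.33, and on log2(TPM + 1) the value was -0.0548. The lowest, median and highest levels were 130, 224 and 356 CPM in the Dose I group and 94.0, 206 and 271 CPM in the Dose II group. The medians remained below the control median of 256 CPM in both.

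Igfals had 73.8, 143 and 206 CPM at Dose I and 78.5, 148 and 228 CPM at Dose II, beside the HFD median of 139 CPM. Its log2 fold changes vs. HFD were -0.01 ± 0.21 and 0.05 ± 0.20, with 95% intervals of -0.43 to 0.41 and -0.36 to 0.46. Igf1 had 175, 196 and 236 CPM at Dose I and 167, 191 and 220 CPM at Dose II, with log2 fold changes of -0.03 ± 0.08 and -0.08 ± 0.08 and intervals of -0.19 to 0.14 and -0.24 to 0.08. The groups overlapped nearly fully for both genes, and the sign of Igfals at Dose II turned on log2(TPM + 1) (-0.0332). Socs2 had a log2 fold change of 0.58 ± 0.44 at Dose I (adjusted p = 0.711), where DI127 with 153 CPM held the highest value, and of -0.05 ± 0.43 at Dose II (adjusted p = 0.970).

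The doses were also compared with each other. None of the 7 genes was called (0 of 7 with either set of libraries), and 0 of all genes were (0%). At an unadjusted p under 0.05 edgeR gave 271 of 9099 genes, none of them of the axis, and DESeq2 and limma also called 0 genes.

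Set against the control group, which differs from the treated groups in diet and in CMA at once, 4 of 7 genes were called at each dose. This stands beside 40.7% of all genes at Dose I and 47.4% at Dose II. With C105 included, the counts were 1 of 7 (beside 21.8%) and 2 of 7 (beside 32.9%). These comparisons share their controls with that of HFD vs. control and their treated animals with those above. On log2(TPM + 1), limma gave 1330 higher and 2469 lower genes at Dose I, beside 1878 and 1826 in edgeR, and 1555 and 2821 at Dose II, beside 2177 and 2133.

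At Dose II vs. control, Igfals (log2 fold change 0.72 ± 0.22, adjusted p = 0.0076) and Igfbp4 (0.31 ± 0.08, adjusted p = 0.0017) were higher. Ghr (-0.39 ± 0.16, adjusted p = 0.0419) and Jak2 (-0.37 ± 0.09, adjusted p = 0.0019) were lower. All 10 Dose II libraries had more Igfbp4 than any of the 8 controls, the highest of which had 1620 CPM. C105 had 2673 CPM, more than any Dose II library, and with it the log2 fold change of Igfbp4 was 0.19 (adjusted p = 0.146). The calls of Jak2 (-0.32, adjusted p = 0.0154) and Ghr (-0.35, adjusted p = 0.0934) held with C105, and that of Igfals did not (0.45, adjusted p = 0.170). Igf1 was not called (0.06 ± 0.08, adjusted p = 0.583), but its sign turned with C105 and on the TPM scale, and with the length trend removed it was lower (-0.213, adjusted p = 0.0442). Jak2 has a long transcript (percentile 91.6 of relative length), and with the length trend removed its log2 fold change was -0.19 (adjusted p = 0.0634).

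At Dose I vs. control, Igfals (0.66 ± 0.22, adjusted p = 0.0211), Igfbp1 (1.13 ± 0.46, adjusted p = 0.0568) and Igfbp4 (0.19 ± 0.08, adjusted p = 0.0674) were higher and Jak2 (-0.23 ± 0.10, adjusted p = 0.0587) was lower. None of these 4 calls held in every alternative. With C105, Igfals (0.39, adjusted p = 0.302), Igfbp4 (0.07, adjusted p = 0.686) and Jak2 (-0.19, adjusted p = 0.211) were not called, and Igfbp1 was the only one that was (1.09, adjusted p = 0.0874). On log2(TPM + 1), Igfbp4 was not called (0.10, adjusted p = 0.280) and Ghr was (-0.37, adjusted p = 0.0760). With the length trend removed, Igfbp4 (0.16, adjusted p = 0.120) and Jak2 (-0.09, adjusted p = 0.448) were not called. Single libraries also ended calls, namely C101, C104, DI121 or DI128 left out for Igfbp1, C103, C108, DI120, DI127 or DI128 for Igfbp4, and C101, C106, DI120, DI121 or DI128 for Jak2. The highest adjusted p in these fits was 0.133 for Igfbp1, 0.159 for Igfbp4 and 0.136 for Jak2.

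Growth hormone receptor signalling comprises more genes than the members, and 21 further genes of it were followed, of which 17 were tested. In the HFD group vs. control, 1 was higher and 6 were lower (0 and 4 with C105), which is 7 of 17 beside the 36.2% of all genes, with a median log2 fold change of -0.02 beside 0.01 over all tested genes. The lower genes included Irs1, the insulin receptor substrate 1, which JAK2 also phosphorylates. Irs1 had 8.95, 15.1 and 35.7 CPM in the 8 controls, against 3.74, 6.68 and 9.41 CPM on the HFD, for a log2 fold change of -1.21 ± 0.24 (adjusted p = 0.0003). The groups overlapped only at their edges. Sos1, the exchange factor that passes the signal to RAS, was lower by a log2 fold change of -0.43 ± 0.09 (adjusted p = 0.0008), Pik3r1, a PI3-kinase regulatory subunit, by -0.35 ± 0.11 (adjusted p = 0.0134), and Ptpn11, the SHP2 phosphatase, by -0.20 ± 0.07 (adjusted p = 0.0272). Ptpn11 was not called with C105 (adjusted p = 0.343).

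The single higher gene was Socs3, another SOCS inhibitor, which cytokines of inflammation also induce. It had 2.56, 5.51 and 7.90 CPM in the 8 controls and 5.31, 7.53 and 10.4 CPM in the HFD group. Its log2 fold change was 0.52 (adjusted p = 0.0652), and it was not called with C105. Cish, an inhibitor of the pathway and a classical STAT5 target, passed in no comparison. In Dose II vs. HFD only Sos1 was called (-0.27 ± 0.09, adjusted p = 0.0862), which is 1 of 17 beside 5.63% of all genes. With C105, Sos1 was not called (adjusted p = 0.173). In Dose I vs. HFD and in Dose II vs. Dose I none of the 17 was called, beside 0.187% and 0% of all genes. Against control, 3 were higher and 6 lower at Dose I (3 and 3 with C105), which is 9 of 17 beside 40.7% of all genes. At Dose II 4 were higher and 6 lower (4 and 6 with C105), which is 10 of 17 beside 47.4% of all genes. The smallest adjusted p at both doses was that of Sos1 (-0.73 ± 0.09 and -0.69 ± 0.09), which was lower in every treated animal than in each of the 8 controls, while Irs1 had the larger log2 fold changes (-1.03 ± 0.24 and -1.20 ± 0.24).

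Of 14 other genes of IGF ligands, receptors and binding proteins and their regulators, 11 had a row and 3 were tested. The 3 were Igfbp7 with a mean of 46.7 TPM, Igf2r with 10.1 TPM and Igfbp5 with 0.515 TPM, and the other 8 were below the filter. Igf2, the fetal ligand, had 1 count over the 37 libraries, and Igf1r, the IGF-1 receptor, had a mean of 0.123 TPM. Igf2r, the receptor that clears IGF-2 and sorts lysosomal enzymes, had 59.98, 89.9 and 112.05 CPM in the 8 controls and 42.9, 63.8 and 76.6 CPM in the HFD group. Its log2 fold change was -0.56 ± 0.12 (adjusted p = 0.0007, and 0.0286 with C105). Igf2r was not called in either dose vs. HFD, with log2 fold changes of 0.06 ± 0.12 and 0.03 ± 0.11. Igfbp5 and Igfbp7 passed in no comparison.

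Of 12 tested genes known to respond to growth hormone or STAT5 in rodent liver, 2 were higher and 3 lower in the HFD group (1 and 2 with C105), which is 5 of 12 beside the 36.2% of all genes, with a median log2 fold change of -0.03 beside 0.01 over all genes. Cux2, a repressor that is more abundant in female liver of mouse and rat, was higher, with 3.27, 4.26 and 10.7 CPM in the 8 controls and 6.9996, 14.1 and 43.6 CPM in the HFD group (log2 fold change 1.71 ± 0.49, adjusted p = 0.0089). Onecut1, the factor HNF6, was lower with 89.2, 112.5 and 187 CPM in the 8 controls and 41.9, 72.4 and 104.8 CPM in the HFD group (-0.79 ± 0.17, adjusted p = 0.0007). The remaining calls were Cebpa (0.61 ± 0.26), Lifr (-1.04 ± 0.34) and Egfr (-0.58 ± 0.25), of which Cebpa (adjusted p = 0.138) and Egfr (adjusted p = 0.313) were not called with C105. None of the 12 was called at Dose I vs. HFD, at Dose II vs. HFD or between the doses. The shares of all genes called there were 0.187%, 5.63% and 0%.

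Among 10 genes under insulin and FOXO1 control, as Igfbp1 is, Srebf1 was higher (0.39 ± 0.13) and Foxo1 lower (-0.59 ± 0.25) in the HFD group vs. control, which is 2 of 10 beside 36.2% of all genes. With C105, Foxo1 was not called (-0.46, adjusted p = 0.319). Sesn1, a stress-inducible FOXO target, was the only 1 of the 10 called in the doses vs. HFD, beside 0.187% and 5.63% of all genes. It had 33.5, 42.01 and 53.6 CPM in the HFD group, 41.3, 60.8 and 123.9 CPM at Dose I and 44.8, 59.6 and 91.0 CPM at Dose II. The log2 fold change was 0.66 ± 0.15 at Dose I (adjusted p = 0.0924, and 0.124 with C105) and 0.60 ± 0.15 at Dose II (adjusted p = 0.0214). Pck1, the rate-limiting enzyme of gluconeogenesis, had log2 fold changes of 0.61 ± 0.23 (adjusted p = 0.402) and 0.66 ± 0.23 (adjusted p = 0.104).

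The axis genes differed widely in the spread between animals of 1 group. The biological coefficient of variation estimated by edgeR was 0.111 for Jak2, 0.123 for Igfbp4 and 0.128 for Igf1, and 13.6%, 22.9% and 26.4% of tested genes had a lower one. It was 0.233 for Ghr and 0.314 for Igfals. It was 0.633 for Igfbp1 and 0.651 for Socs2, above 99.5% and 99.6% of tested genes. The highest animal had 26.4 times the Igfbp1 of the lowest in the control group, and 13.7 times the Socs2 of the lowest in the Dose I group. The same ratios for Igf1 were between 1.32 and 1.63 in the 4 groups.

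Which genes deviated together in the same animal was asked with log2 CPM centred on the group means, over 37 libraries and 21 pairs of genes. By Pearson's r, 0 pairs passed at an adjusted p under 0.05 (permutation within groups), and by Spearman's rho 3 did, each with an adjusted p of 0.0284. Igfbp1 and Socs2 were opposed (rho = -0.485, raw p = 0.00406, and r = -0.464, raw p = 0.00514, adjusted p = 0.0607, permutation tests). Without the 2 libraries farthest from the median of Igfbp1, r was -0.519. Within the groups r was -0.817 in the control group, -0.744 in the HFD group, -0.176 at Dose I and -0.283 at Dose II. In the control group, C101 and C104, the highest in Socs2 (67.3 and 67.9 CPM), had the lowest Igfbp1 (8.57 and 31.3 CPM), and C107, the lowest in Socs2 (13.2 CPM), had the highest Igfbp1 (226 CPM).

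The other pairs were Ghr with Jak2 (rho = 0.492, raw p = 0.00367, and r = 0.375, raw p = 0.0243, adjusted p = 0.128, permutation tests) and Igfbp4 with Jak2 (rho = -0.484, raw p = 0.00404, and r = -0.470, raw p = 0.00578, adjusted p = 0.0607, permutation tests). Without the 2 farthest libraries, r was 0.33 for the first and -0.497 for the second. Within the control, HFD, Dose I and Dose II groups, r was 0.136, 0.735, 0.144 and 0.452 for the first. In the same order it was -0.0573, -0.475, -0.561 and -0.71 for the second. After removal of each library's trend with gene length, rho was 0.341 and -0.339 and 0 of 21 pairs passed by either measure. Igfbp1 with Socs2 kept a rho of -0.483 there, with an adjusted p of 0.0705. With C105 included, 6 pairs passed by r and 4 by rho.

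**Figure D3:**
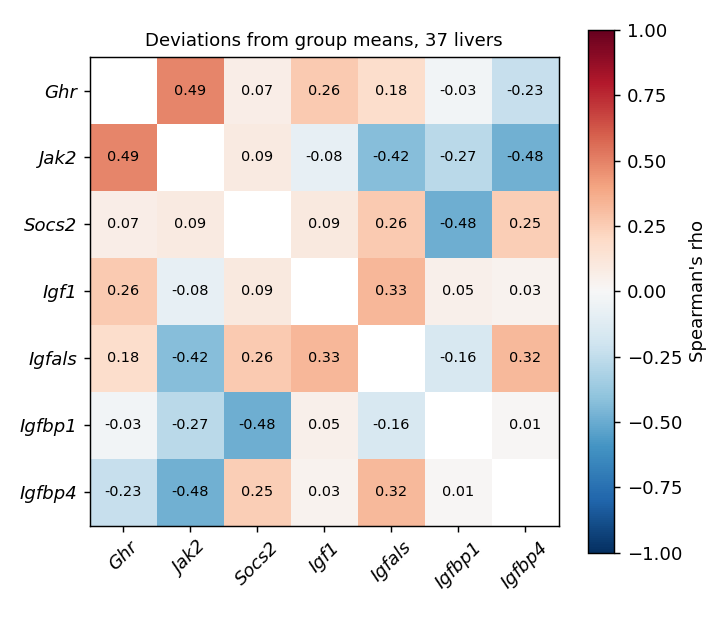
Spearman's rho between the 7 tested genes over 37 libraries, computed on log2 CPM after subtraction of each group's mean, with red for positive and blue for negative values. The 3 pairs past the test are Ghr with Jak2 (0.492), Igfbp1 with Socs2 (-0.485) and Igfbp4 with Jak2 (-0.484).

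Finally, the genes most like each member over the 37 libraries were listed, as a description, by Pearson's r of log2 CPM among 5923 genes with a mean of at least 10 CPM. This r includes differences between group means, so the r after subtraction of group means is given second. For Socs2 the closest was Cish (r = 0.79 and 0.807), which encodes another SOCS family inhibitor, followed by B4galt1 (0.742 and 0.789) and Zfp622 (0.718 and 0.768). Socs2 and Cish moved together within each group, with r of 0.947 in the control group, 0.875 in the HFD group, 0.611 at Dose I and 0.868 at Dose II. Cish had 13.9, 57.5 and 107.8 CPM in the 8 controls, 8.36, 39.4 and 120.6 CPM in the HFD group, 25.7, 46.7 and 95.8 CPM at Dose I and 17.4, 44.5 and 152 CPM at Dose II, so that its groups overlapped broadly like those of Socs2.

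**Figure D4:**
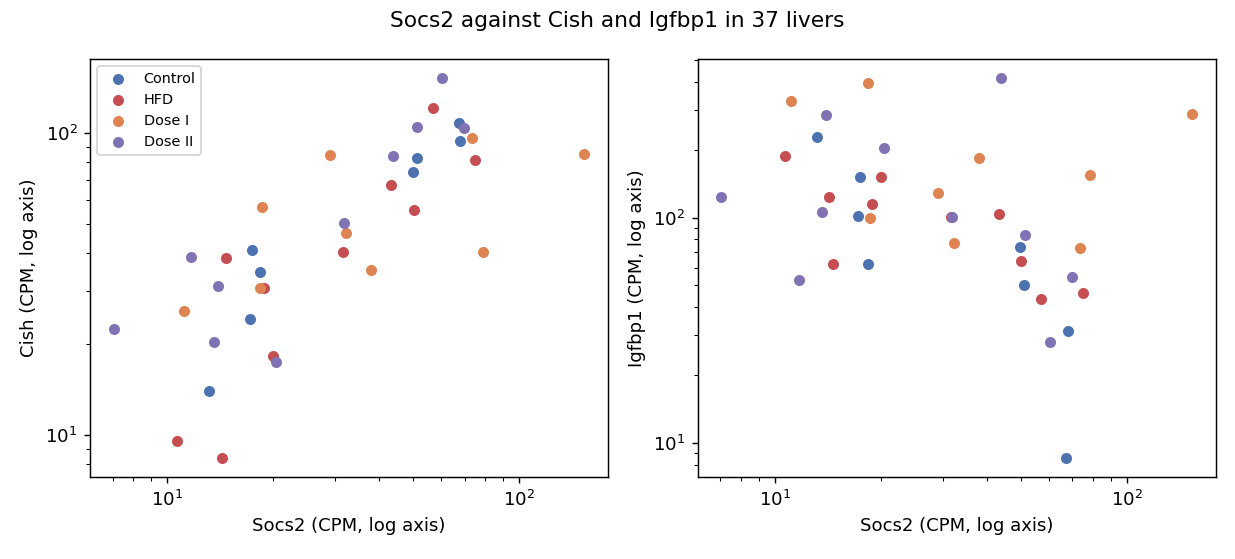
CPM of Cish (left) and of Igfbp1 (right) against that of Socs2 in 37 livers on log axes, coloured by group. Cish follows Socs2 in every group, while Igfbp1 is lowest, at 8.57 CPM, in a control liver with 67.3 CPM of Socs2.

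For Igfbp1 the closest genes were Zfp36 (r = 0.766 and 0.751), which encodes a protein that destabilises mRNAs of cytokines, Pim3 (0.712 and 0.651), a serine/threonine kinase, and Mafg (0.686 and 0.643), a small MAF transcription factor. For Igfbp4 they were Nudt3 (0.829 and 0.665), Gnmt (0.827 and 0.644), the glycine N-methyltransferase that makes sarcosine, and Cnpy3 (0.805 and 0.671). For Igfals they were Pepd (0.865 and 0.809), a dipeptidase, Fkbp8 (0.839 and 0.819) and Tapbp (0.825 and 0.815). For Ghr they were Xpo7 (0.841 and 0.805), a nuclear transport receptor, Acadsb (0.833 and 0.896), an acyl-CoA dehydrogenase of branched-chain substrates, and Slc7a2 (0.83 and 0.787), a transporter of cationic amino acids. For Jak2 they were Zfyve16 (0.744 and 0.596), Usp33 (0.743 and 0.652) and Pja2 (0.73 and 0.621). By the first measure the values of Igf1 were the lowest, with Rexo2 (0.634 and 0.594), Hagh (0.632 and 0.666) and Mtch2 (0.552 and 0.549). The order of the listed genes differs between the measures, for example for Ghr and Igf1. The libraries share the trends with gene length given above, and the part of these trends in the likeness of the listed genes was not tested.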

How the data were processed

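Per the study's methods, the authors ran kallisto against the MesAur1.0 assembly, and the deposited values are its unnormalized estimated counts and TPM for 14631 gene symbols. The aligner's version is not given in the sources used here. All 38 columns were matched to labelled samples. Estimated counts were rounded to whole numbers, filtered with filterByExpr and scaled by TMM, and edgeR 4.0.16 in R 4.3.3 gave the tests (quasi-likelihood F test, 1 coefficient per group, Benjamini-Hochberg adjustment over 9099 genes), with genes called at an adjusted p under 0.1. The SE was derived from F (absolute log2 fold change over its square root), and 95% intervals use the fit's degrees of freedom. CPM were scaled by TMM over all 38 libraries, and log2 CPM used a prior count of 2. Control C105, taken as the one the study dropped, was kept out of the main fit, and all 38 libraries are given beside it.

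Pairs of genes were tested by 100000 permutations within groups. The threshold there was 0.05. Relative gene length was the ratio of estimated counts to TPM. The edgeR step and the pair test were tested on simulated data. Kallisto shares reads among similar transcripts, so estimated counts of near-identical genes carry that uncertainty. Alternatives were DESeq2 1.42.0, limma 3.58.1 on log2(TPM + 1) and log2(TPM + 0.1), RLE normalization, no filter or at least 10 counts in every library, only the groups compared, the trend with gene length (lowess span 0.3) removed, 0.05 as the threshold, and fits that leave out 1 library each.

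The 9 genes, the other lists and the tests were chosen with earlier results of these data known. Named genes are the 9, up to 4 genes of each list with the smallest adjusted p, and the 3 genes most like each. Called genes and the inhibitors Socs3 and Cish were named beyond that after their values were seen. Sequences, promoters and proteins were not used here. Where nothing says that libraries came from separate animals, p-values measure the spread between these samples only. All pairs of libraries within groups differed beyond sampling noise (chi-square per gene of at least 6.71).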

Additional observations from a re-analysis of the deposited data

Results flagged for a closer look

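Of 28 sets examined (7 genes in 4 groups, with C105 among the controls), 3 held a library set apart from the others by Dixon's ratio on linear CPM. Chance sets one apart in about 1 of 20 sets only for normally distributed values, which was not tested, and ratios on the log scale were not computed. Both flags in the control group are C105, already set apart on the first principal component, so the count cannot be set against chance. In the control group, C105 had 262 CPM of Igfals, and the next control had 145 CPM. In the same library Igfbp4 stood at 2673 CPM, and the next control had 1620 CPM. In the Dose I group, DI127 had 153 CPM of Socs2, and the next library had 78.7 CPM. C105 also had 287 CPM of Igf1, more than the 233 CPM of the highest other control, and 15.2 CPM of Jak2, less than the 18.5 CPM of the lowest. On the TPM scale C105 had 1057 TPM of Igfbp4, beside 740.5 to 896.1 TPM in the other controls. For Igf1 it had 547.9 TPM, inside the range of 382.3 to 617.2 TPM of the other controls. Without DI127, the comparison of Dose I with HFD again called 0 of 7 genes.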

How the results depend on the processing

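Of the tests rerun, the call of Igfbp4 in Dose II vs. HFD kept its direction and its side of the threshold in all alternatives run (log2 fold change 0.28 to 0.40). With all 38 libraries, 0 of the 7 axis genes were called in HFD vs. control, beside 15.6% of all genes. The counts were 1 of 7 in Dose I vs. control (beside 21.8%) and 2 of 7 in Dose II vs. control (beside 32.9%). With the same libraries, 6 pairs of axis genes passed by r. Dose I vs. control held 2 called axis genes with the length trend removed, beside 1692 higher and 1609 lower genes in all. It held 1 at the threshold of 0.05, and 1 to 5 when each library was left out. Dose II vs. HFD held 2 on either TPM scale, beside 590 of 9099 genes on log2(TPM + 1), and 1 to 2 when each library was left out. The shares of all genes at 0.05 and in the fits with a library left out are not given here. The sign of Igf1 turned in Dose II vs. control to -0.0241 with 38 libraries, to -0.0276 on both TPM scales and to -0.213 (adjusted p = 0.0442, a call) with the length trend removed, which also gave -0.0431 in HFD vs. control and -0.117 in Dose I vs. control. With pseudocounts of 1 and 0.1 on TPM, Dose II vs. HFD gave -0.0548 and -0.0554 for Ghr and -0.0332 and -0.0339 for Igfals. When each library was left out, small log2 fold changes crossed 0. In HFD vs. control these were Igfbp4 (-0.0869 to 0.00589) and Socs2 (-0.386 to 0.0133). In Dose I vs. HFD they were Igf1 (-0.0642 to 0.00163) and Igfals (-0.0953 to 0.0776). In Dose II vs. HFD they were Ghr (-0.0438 to 0.101), Igfals (-0.0372 to 0.141) and Socs2 (-0.246 to 0.162). Without C108, Igf1 passed in HFD vs. control (0.20, adjusted p = 0.0734), without C107 Igfbp1 passed in Dose II vs. control (1.09, adjusted p = 0.0562), and without DI126 Ghr passed in Dose I vs. control (adjusted p = 0.0712). The causes were not tested. No paired analysis was possible because the replicate numbers are unique to each library.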

Other observations

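Bcl6, which encodes a repressor that opposes STAT5 at its targets in mouse liver, was looked at after its values were seen. Its relations are therefore given as values only, and the permutation test that was also run on them is not used here. Bcl6 had 2.75 to 18.8 CPM in the 8 controls, 1.98 to 34.8 CPM in the HFD group, 2.16 to 26.1 CPM in the Dose I group and 2.05 to 37.1 CPM in the Dose II group, and its biological coefficient of variation (0.776) exceeded that of 99.9% of tested genes. It passed the test in no comparison of groups. Fgf21 (0.815), a fasting hormone, Igfbp5 (0.768) and Cux2 (0.629) had coefficients in the same range. Over the 37 libraries, after subtraction of group means, r was -0.516 for Bcl6 with Cish, -0.425 with Socs2 and 0.193 with Igfbp1.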
